A study of Mus musculus with 6 samples.

Results

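The small leucine-rich proteoglycans are secreted matrix proteins whose core carries a row of leucine-rich repeats, and 9 genes of the family, Lum, Dcn, Bgn, Fmod, Ogn, Prelp, Omd, Aspn and Podn, are described here in adipocytes with and without RBMS1 knockdown. The members were taken by gene symbol from 45706 genes of the count table. The family was chosen by the lower level of Lum in the knockdown, so the differences between the groups are given for all members as a description, without p-values, and the calls of members that the fit across all genes makes are listed but support nothing. RNA was sequenced from adipocytes formed by 3T3-L1, a preadipocyte line of mouse embryo origin, on day 7 after induction with IBMX, insulin, dexamethasone and rosiglitazone. The 3 scrambled control samples (genotype label WT) carried a scrambled shRNA and the 3 RBMS1 knockdown samples (genotype label RBMS1KD) an Rbms1 shRNA, delivered by lentivirus and followed by puromycin selection of stable cells. All samples received the same adipogenic treatment, and the same 3 samples of each group enter every comparison. Whether the replicates of a group came from separate transductions is not given in the sources used here, so a p-value here measures the spread between these samples, which may be partly technical.

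Most of these proteins bind collagen fibrils through their leucine-rich repeats and set how fibrils space and thicken. Several carry glycosaminoglycan chains, which are chondroitin or dermatan sulfate on decorin and biglycan and keratan sulfate on lumican and fibromodulin. Some also hold growth factors or bind receptors, as decorin does with TGF-beta and the EGF receptor. The family is divided into classes by the cysteine spacing at the start of the protein and by gene structure. Dcn, Bgn and Aspn belong to class I, Lum, Fmod, Prelp and Omd to class II, Ogn to class III and Podn to class V. In adipose tissue they are typical products of stromal fibroblasts and preadipocytes.

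Total counts ranged from 3142695 to 11073098 per sample. Scrambled control replicate 2 stood apart, with the fewest counts and 43.0% of them in genes derived from ribosomal RNA, against 8.12% to 17.8% in the other samples. The targeted gene Rbms1 had TMM-normalised counts per 1000000 counts (CPM, where TMM scaling corrects each library total for its composition) of 113, 102 and 99.6 in the scrambled control and 49.2, 61.4 and 84.0 in the knockdown. Every knockdown sample lay below every control, and the study reported the knockdown of the protein by immunoblot. The adjusted p of Rbms1 RNA was 0.185, above the threshold of 0.1. Here and below, an adjusted p comes from the quasi-likelihood F-test of edgeR, corrected by Benjamini-Hochberg over all tested genes, unless DESeq2 is named. Adipocyte markers summed to between 11430 and 12891 CPM in the control and between 6808 and 11955 CPM in the knockdown, and Adipoq was at 1056 CPM or more in every sample. Of 12 preadipocyte and fibroblast markers, Dpp4 was at 0 in every sample, and the sums were 5628 to 6971 CPM in the control and 4664 to 8095 CPM in the knockdown. The macrophage markers Ptprc and Adgre1 were at 0, and the macrophage and endothelial sums did not exceed 3.39 and 2.40 CPM. Chondrocyte and osteoblast markers summed to 60.0 to 92.8 CPM in the control and 56.2 to 75.0 CPM in the knockdown, mostly from Sox9, Runx2 and Alpl, with Acan at 0. Skeletal muscle markers summed to 23.9 to 29.2 CPM and 19.5 to 33.4 CPM, nearly all from Des, with Myod1, Myog and Ckm at 0. These are bulk samples, in which fewer cells of a type and less RNA per cell cannot be told apart.

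Of the 9 members, 8 passed the filter on low counts and Omd did not. The members sit in few places of the genome. In GRCm38, Dcn (ENSMUSG00000019929, chromosome 10 from 97479609 to 97518143) and Lum (ENSMUSG00000036446, chromosome 10 from 97565128 to 97572703) are neighbours. Aspn (chromosome 13 from 49544443 to 49567565), Omd (49582462 to 49592822) and Ogn (49608046 to 49624501) follow each other on chromosome 13. Prelp (chromosome 1 from 133910304 to 133921414) and Fmod (134037254 to 134048277) are adjacent on chromosome 1 in opposite orientation. Bgn (chromosome X from 73483602 to 73495933) and Podn (chromosome 4 from 108014791 to 108096445) stand alone. The annotated span of Podn overlaps that of Scp2 on the same strand, so reads there could be credited to either gene.

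The promoter table of RefSeq (GRCm38.p6) held 7 of the 9 members, and Lum and Dcn had no entry. The 250 bases before the start are shown for Ogn and Aspn, which lie in the same cluster, and for Prelp, whose values went the other way from those of Ogn. Capitals mark matches on either strand to TATAAA, the letters of a TATA box. They also mark CCAAT, as in a CCAAT box. Matches to GGAATG, as in a TEAD element, are in capitals too. GGGCGG and TGANTCA were searched as well.
Ogn, chr13:49607765-49608014, plus strand.
Ogn: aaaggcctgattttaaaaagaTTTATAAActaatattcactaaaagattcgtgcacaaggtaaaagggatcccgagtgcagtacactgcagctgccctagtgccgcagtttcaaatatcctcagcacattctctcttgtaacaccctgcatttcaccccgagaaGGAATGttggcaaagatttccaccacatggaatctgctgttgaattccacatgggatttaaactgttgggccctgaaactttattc
Aspn, chr13:49544193-49544442, plus strand.
Aspn: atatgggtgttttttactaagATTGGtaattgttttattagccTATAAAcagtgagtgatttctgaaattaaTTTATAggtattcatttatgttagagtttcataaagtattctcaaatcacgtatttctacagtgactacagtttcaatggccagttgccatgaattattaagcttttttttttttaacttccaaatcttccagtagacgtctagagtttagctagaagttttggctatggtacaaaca
Prelp, chr1:133921402-133921651, minus strand.
Prelp: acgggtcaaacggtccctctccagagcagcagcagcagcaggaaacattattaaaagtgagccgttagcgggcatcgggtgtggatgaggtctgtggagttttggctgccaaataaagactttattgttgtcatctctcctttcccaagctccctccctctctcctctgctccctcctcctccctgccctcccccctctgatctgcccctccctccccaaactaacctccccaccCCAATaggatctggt
These windows differ in composition, with 42% G and C in Ogn, 30% in Aspn and 55.6% in Prelp. In Ogn, 2 overlapping TATAAA matches on opposite strands began 229 and 227 bases before the start, and GGAATG began 86 bases before it. In Aspn, TATAAA matches began 207 and 178 bases before the start and a CCAAT match 229 bases before it. In Prelp, CCAAT began 15 bases before the start. Among 32817 promoter windows of the same length, 12.4% held TATAAA, 33.8% CCAAT and 12.6% GGAATG. The other members with an entry had GGGCGG matches in Bgn and Podn and none of these letters in Fmod and Omd, and GGGCGG was in 32.7% of all windows. No window of the 7 members held TGANTCA, as in an AP-1 element, which was in 6.75% of all windows. A match is given as letters in the window only.

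Lum encodes lumican, a class II keratan sulfate proteoglycan that keeps collagen fibrils thin and evenly spaced, and its value chose the family. Its level was 30.0, 40.2 and 47.0 CPM in scrambled control replicates 1, 2 and 3 and 9.49, 7.01 and 14.2 CPM in RBMS1 knockdown replicates 1, 2 and 3. The highest knockdown sample lay below the lowest control sample. The fitted log2 fold change was -1.92 (standard error, SE, 0.29), or 3.79-fold lower in the knockdown. Leaving out any 1 sample gave -2.24 to -1.70.

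Dcn, the neighbour of Lum, encodes decorin, which binds collagen and TGF-beta and carries a chondroitin or dermatan sulfate chain. It was at 278, 220 and 281 CPM in the control replicates and at 85.4, 149 and 172 CPM in the knockdown replicates. The groups did not overlap, and knockdown replicate 1 was the lowest. The log2 fold change of Dcn was -0.94 (SE 0.25), or 1.92-fold lower, and -0.69 without knockdown replicate 1.

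Ogn encodes osteoglycin, also called mimecan, the class III member of the set. Its level was 112, 127 and 178 CPM in the control and 27.5, 63.0 and 42.7 CPM in the knockdown. Here too the knockdown samples all lay below the controls, with knockdown replicate 1 the lowest. The log2 fold change was -1.65 (SE 0.30), or 3.13-fold lower, and -1.39 without knockdown replicate 1.

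Prelp encodes a class II protein with an end rich in proline and arginine that binds heparan sulfate and links basement membranes to collagen. It went the other way. Its level was 132, 132 and 97.6 CPM in the control and 218, 174 and 279 CPM in the knockdown, so that the lowest knockdown sample lay above the highest control. The log2 fold change was 0.90 (SE 0.21), or 1.86-fold higher, and leaving out any 1 sample gave 0.71 to 1.06.

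Aspn and Bgn, the remaining class I genes, overlapped between the groups. Aspn encodes asporin, which has a run of aspartates in place of the glycosaminoglycan chains of its class and binds TGF-beta. It was at 202, 302 and 421 CPM in the control and 109, 222 and 239 CPM in the knockdown. Both groups were widely spread, and the log2 fold change was -0.70 (SE 0.33). It ran from -0.92 without scrambled control replicate 1 to -0.41 without scrambled control replicate 3. Bgn encodes biglycan, a proteoglycan that binds collagen and can act on Toll-like receptors when soluble. It had 2176, 1889 and 1932 CPM in the control and 1055, 1872 and 2561 CPM in the knockdown. The knockdown samples of Bgn thus held both the lowest and the highest value, and the log2 fold change was -0.13 (SE 0.31). For Bgn the sign was not fixed, since it was 0.16 without knockdown replicate 1 and 0.25 with libraries scaled by their size alone, which is -0.12 relative to the median of all genes under that scaling.

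Fmod, Podn and Omd were rare transcripts. Fmod, which encodes fibromodulin, a regulator of collagen cross-linking, had 35, 2 and 11 counts in the control and 0, 17 and 25 in the knockdown. Its log2 fold change was -1.20 (SE 0.87), and it became -0.23 without scrambled control replicate 1, which held most of the control counts. Podn, which encodes podocan, had 31, 6 and 19 counts in the control and 4, 23 and 58 in the knockdown, a log2 change of -0.56 (SE 0.60) that became -0.12 without knockdown replicate 1 and -1.19 without knockdown replicate 3. Omd, which encodes osteomodulin of mineralised tissue, had 6, 1 and 4 counts in the control and 6, 7 and 8 in the knockdown. Pooled over each group and divided by the scaled library sizes, the knockdown to control ratio of Omd was 0.922 (95% exact binomial interval 0.425 to 2.12, counting error only), so a difference was not detectable at this depth.

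**Figure D1:**
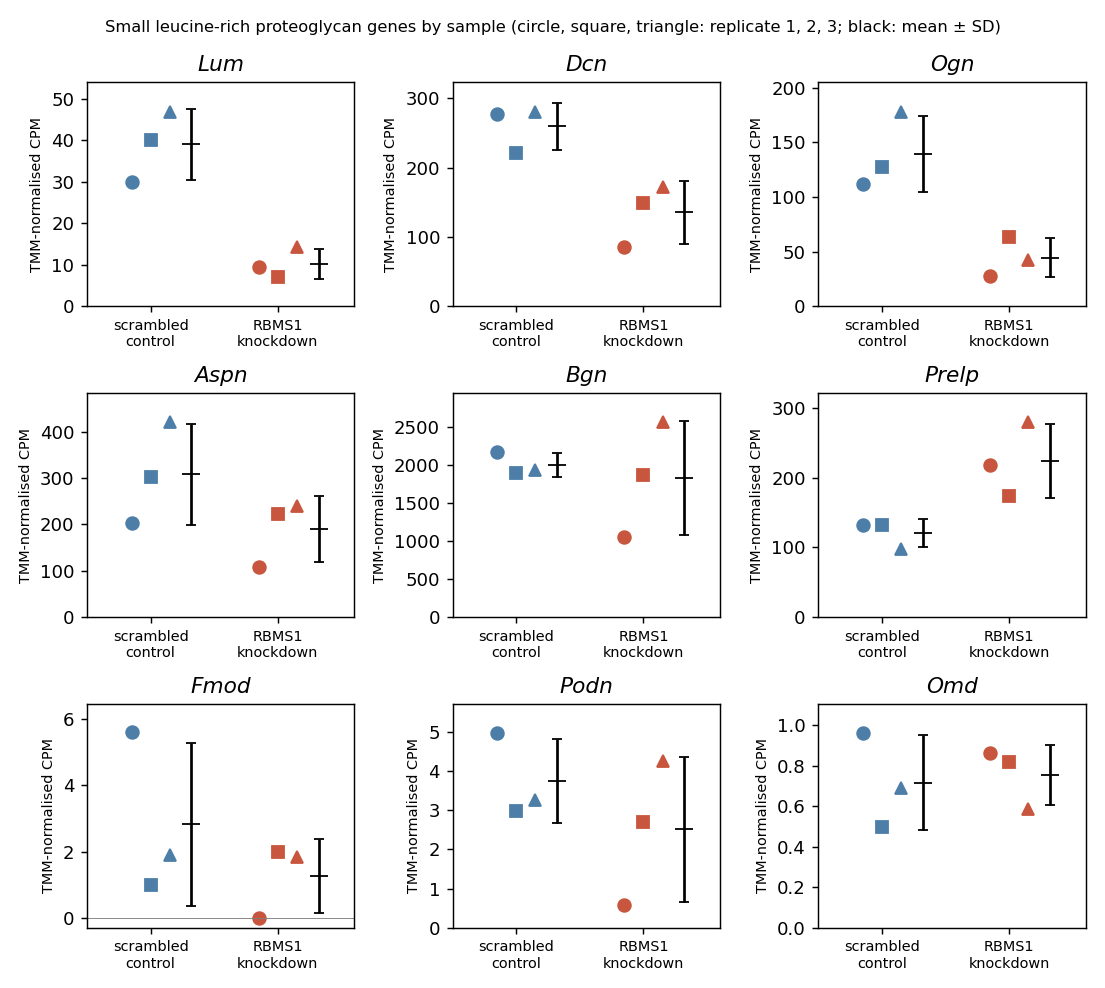
TMM-normalised CPM (vertical axes, linear) of the 9 genes in the 3 scrambled control and 3 RBMS1 knockdown samples, with the replicate given by the symbol and the mean and SD in black. Lum, Dcn and Ogn are lower and Prelp is higher in every knockdown sample than in every control, while Aspn, Bgn, Fmod, Podn and Omd overlap.

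In all, 3 tested members lay lower without overlap (Lum, Dcn and Ogn), 1 lay higher without overlap (Prelp) and 4 overlapped. Over all 11440 tested genes, 18.5% had no overlap between the groups, 9.55% with the knockdown lower and 8.96% with it higher. At the threshold of 0.1 on the adjusted p, edgeR called 1.22% of all tested genes, 0.909% lower and 0.315% higher. Lum and Ogn were among the genes called lower, and no member was among those called higher. With libraries scaled by size alone, 1.1% of all tested genes were called. Lum and Prelp, the latter as higher, were the members called there, and Ogn was not called. Since the contrast chose the family, nothing is read from these counts of members. The calls also moved with single samples. Neither gene was called without scrambled control replicate 2 or 3, only Lum was called without scrambled control replicate 1, and only Ogn when RBMS1 knockdown replicate 2 was left out. Leaving out RBMS1 knockdown replicate 3 gave calls for Lum, Ogn and Dcn, and leaving out RBMS1 knockdown replicate 1 gave calls for these and Prelp. The number of all called genes then lay between 12 and 696, or 0.101% to 5.94% of those tested.

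**Figure D2:**
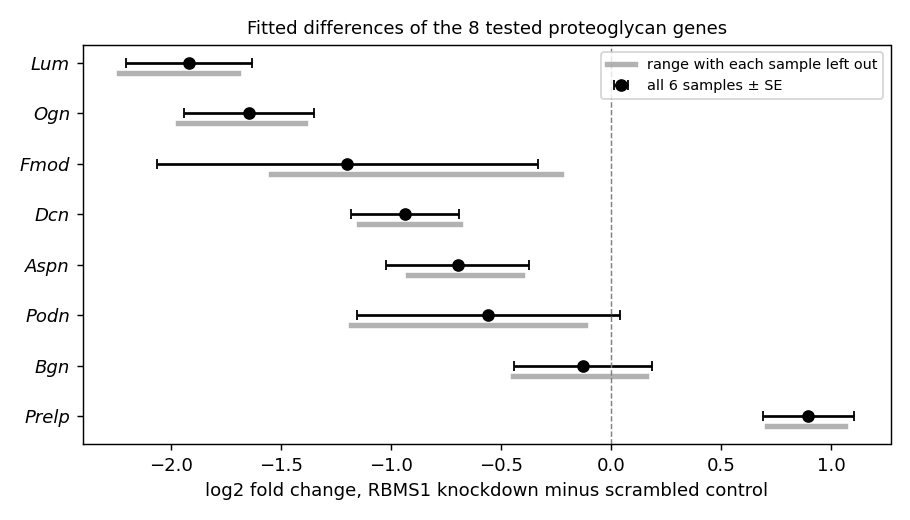
Fitted log2 fold change (horizontal axis, RBMS1 knockdown minus scrambled control) of the 8 tested genes, with points and bars for all 6 samples and the standard error, and grey bars for the range with each sample left out. Lum at -1.92 and Prelp at 0.90 mark the ends, and the grey bar of Bgn crosses 0 (it is also above 0, at 0.25, by library size alone).

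Ratios of counts within a library do not depend on how libraries are scaled. Reads of Prelp outnumbered those of Lum 4.41, 3.27 and 2.08 times in the control replicates and 23, 24.8 and 19.6 times in the knockdown replicates. Against Ogn, Prelp had 1.18, 1.04 and 0.548 times as many reads in the control and 7.95, 2.76 and 6.56 times as many in the knockdown. Neither ratio overlapped between the groups, and the knockdown had the higher values. Within the chromosome 13 cluster, the ratio of Ogn to Aspn was 0.554, 0.420 and 0.423 in the control and 0.252, 0.284 and 0.179 in the knockdown. Dcn to Bgn, of the same class, gave 0.128, 0.117 and 0.145 in the control and 0.081, 0.0794 and 0.0673 in the knockdown. These ratios were lower in each knockdown sample. In contrast, the other ratios taken overlapped. Lum to its neighbour Dcn was at 0.108, 0.182 and 0.167 in the control and 0.111, 0.0472 and 0.0826 in the knockdown. Ogn to Lum gave 3.74, 3.16 and 3.79 in the control and 2.89, 8.98 and 2.99 in the knockdown. Aspn to Bgn gave 0.093, 0.160 and 0.218 in the control and 0.103, 0.119 and 0.0933 in the knockdown. The ratios rest on the same reads and samples as the fold changes and are no separate evidence.

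**Figure D3:**
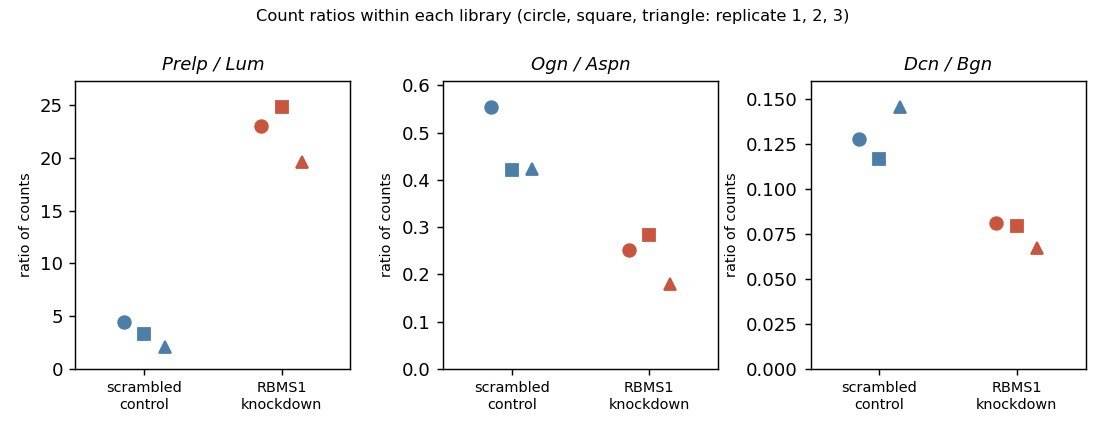
Ratios of read counts within each library (vertical axes, from 0) for 3 pairs of genes, with the replicate given by the symbol. Prelp to Lum lies between 2.08 and 4.41 in the control and between 19.6 and 24.8 in the knockdown, while Ogn to Aspn and Dcn to Bgn lie lower in each knockdown sample.

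Cell type markers differed between samples as well. The fibroblast marker sum was lowest in RBMS1 knockdown replicate 1 (4664 CPM) and highest in RBMS1 knockdown replicates 2 and 3 (7522 and 8095 CPM), against 6971, 5628 and 5771 CPM in the control. Of 9 tested fibroblast markers, 6 were below 0 (median log2 fold change -0.073), 0 were called by edgeR, 2 had an unadjusted p under 0.05 and 1, Pdgfra, was called by DESeq2. Without RBMS1 knockdown replicate 1, where 5.94% of all tested genes were called, edgeR called Pdgfra too. Pdgfra, a receptor of adipocyte precursors, had a log2 fold change of -0.87 (SE 0.23, edgeR adjusted p = 0.155), and Dlk1, a preadipocyte factor, had -0.84 (SE 0.36, edgeR adjusted p = 0.388). With each sample left out, Pdgfra ran from -1.05 to -0.63 and Dlk1 from -1.05 to -0.49. The other tested markers lay between -0.15 for Sparc and 0.52 for Fn1 on the log2 scale. Most of the marker sum, 86.9% to 94.1% in each sample, came from Fn1, Sparc and Vim. Knockdown replicate 1 was also the lowest sample for Dcn, Ogn, Aspn, Bgn, Fmod and Podn. Per 1000 CPM of fibroblast markers, Lum was at 4.30, 7.14 and 8.14 in the control and 2.03, 0.932 and 1.76 in the knockdown, and Ogn at 16.1, 22.6 and 30.9 against 5.89, 8.38 and 5.27. Dcn was at 39.9, 39.2 and 48.7 in the control and 18.3, 19.8 and 21.3 in the knockdown on this scale. Relative to this sum Lum, Ogn and Dcn did not overlap between the groups. Prelp did, with 18.9, 23.4 and 16.9 in the control and 46.8, 23.1 and 34.6 in the knockdown. The picture depended on the marker. Over each of the 9 tested fibroblast markers alone, the knockdown lay below the control without overlap for Lum with 7 markers, for Ogn with 8 and for Dcn with 5, and it lay above for Prelp with 6. Dcn per Pdgfra overlapped, at 1.36, 0.904 and 1.09 in the control and 1.03, 1.04 and 1.09 in the knockdown, and Lum, Ogn and Dcn each overlapped when divided by Dlk1. The adipocyte marker sum was 11430, 12891 and 12309 CPM in the control and 11955, 6808 and 8911 CPM in the knockdown. All 11 tested adipocyte markers had a log2 fold change below 0 (median -0.41), against 49.6% of all tested genes. Slc2a4 (-0.098, SE 0.34), Adipoq (-0.24, SE 0.33) and Cidec (-0.28, SE 0.30) lay within their SE of 0. Retn was called lower (log2 fold change -1.67, SE 0.36, edgeR adjusted p = 0.0967, 0.000207 to 0.358 over the alternatives). Retn lost its call without any 1 of the controls, RBMS1 knockdown replicate 2 or RBMS1 knockdown replicate 3 (edgeR adjusted p 0.123 to 0.358), and also by RLE factors, by library size alone, with the replicate block and by the earlier quasi-likelihood estimate (edgeR adjusted p 0.102 to 0.124). Without RBMS1 knockdown replicate 1, in contrast, 7 of these markers were called by edgeR, namely Cebpa, Cfd, Cidec, Lipe, Plin1, Retn and Slc2a4, in a fit that called 5.94% of all tested genes. Per 1000 CPM of adipocyte markers, Lum was at 2.62, 3.12 and 3.82 in the control and 0.794, 1.03 and 1.60 in the knockdown. Prelp did not overlap on that scale either (11.6, 10.2 and 7.93 against 18.3, 25.6 and 31.4), and Ogn was separated narrowly (9.80, 9.86 and 14.5 against 2.30, 9.26 and 4.79). Dcn overlapped (24.3, 17.1 and 22.8 against 7.14, 21.8 and 19.4). Only Lum, Ogn, Dcn and Prelp, the members without overlap by CPM, were set against single markers. The ratios to markers reuse the member values of the contrast that chose the family and are no separate evidence. The part of cell composition in the members' values was not tested.

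To compare genes with each other, CPM were divided by the kilobases of merged exons. Bgn was the most abundant member, at 328 ± 25.4 CPM per kilobase in the control group and 299.9 ± 124 in the knockdown group (SD, n = 3 each). In the control it was followed by Aspn at 131 ± 46.4, Ogn at 54.2 ± 13.5, Dcn at 44.5 ± 5.84, Prelp at 33.3 ± 5.47 and Lum at 16.0 ± 3.50 CPM per kilobase (SD, n = 3 each). The sample ranges of Ogn and Dcn overlapped, and those of the other neighbours from Bgn down to Lum did not. Podn, Fmod and Omd, at 0.876, 0.857 and 0.318 CPM per kilobase, ended the order, with Fmod overlapping both Podn and Omd. In the knockdown, Prelp moved to the third place with 62.0 ± 14.7 CPM per kilobase (SD, n = 3), overlapping with Aspn at 80.7 ± 30.1 and above the ranges of Dcn at 23.2 ± 7.70 and Ogn at 17.3 ± 6.95. Lum was at 4.19 ± 1.50 CPM per kilobase (SD, n = 3) there, below the range of Ogn and above that of Podn. The length used matters most for Bgn, which was at 749.9 CPM per kilobase of its longest transcript in the control, and for Dcn, which at 55.3 by that length came just above Ogn. By reads alone, Bgn supplied between 65.2% and 77.2% of the members' CPM in every sample. The share of Lum in that sum was 1.02% to 1.59% in the control and 0.281% to 0.630% in the knockdown, and that of Prelp 3.29% to 4.84% and 6.98% to 14.5%.

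**Figure D4:**
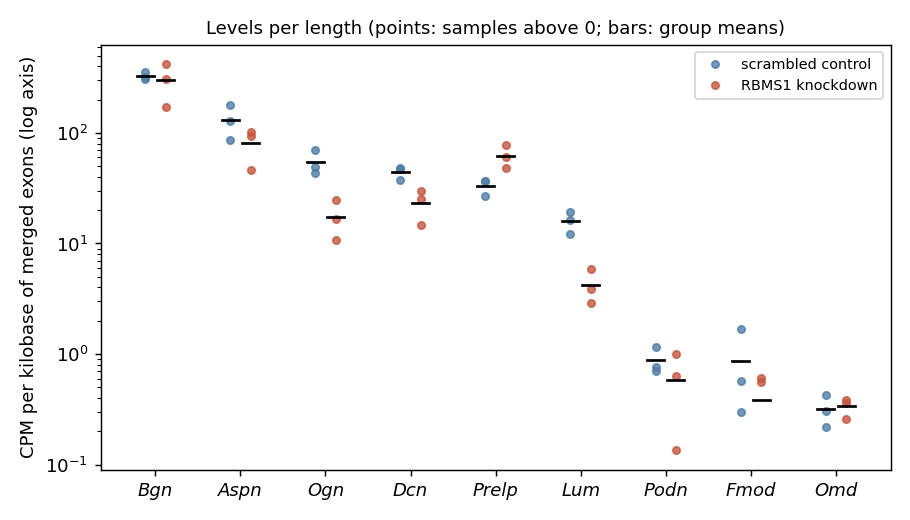
CPM per kilobase of merged exons (vertical axis, log scale) for the 9 genes, ordered by the control mean, with points for samples above 0 and bars for group means. Bgn is highest in both groups, Prelp lies above Ogn and Dcn in the knockdown only, and Podn, Fmod and Omd stay under 1.70 CPM per kilobase in every sample.

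The genes next to the members were examined for the same clusters. Kera, the keratocan gene beside Lum, had 4, 3 and 14 counts in the control and 2, 2 and 5 in the knockdown, too few to be tested. Its pooled ratio of knockdown to control was 0.207 (95% exact binomial interval 0.0834 to 0.471, counting error only). Btg1, the neighbour on the other side of Dcn at a distance of 856.8 kb, had a log2 change of -0.051 (SE 0.17, edgeR adjusted p = 0.935), and by library size alone the sign turned. On chromosome 13, Ecm2 and Nol8 flank the cluster of Aspn, Omd and Ogn. Their log2 fold changes were -0.33 (SE 0.69) and 0.085 (SE 0.27) (edgeR adjusted p 0.891 and 0.933), and each sign turned in some leave-one-out fits. On chromosome 1, Optc beside Prelp had 0, 1 and 1 counts in the control and 1, 1 and 9 in the knockdown. Btg2, an antiproliferative gene beside Fmod, had a log2 change of -1.21 (SE 0.34, edgeR adjusted p = 0.169, 0.0143 to 0.415 over the alternatives) with no overlap between the groups. Haus7 and Scp2, next to Bgn and Podn, had adjusted p of 0.859 and 0.638 in that edgeR test. Slc1a7 and Atp2b3, on the other sides of Podn and Bgn, had no count in the control. Of the 6 tested neighbours other than members, 0 were called by edgeR, 1 had an unadjusted p under 0.05 and 1 was called by DESeq2, Btg2 in both cases. Among all tested genes, edgeR called 1.22% and DESeq2 2.22%, and 12.4% had an unadjusted edgeR p under 0.05.

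Of 9 further family genes, Chad had no count and 3 were tested. Tsku, which encodes tsukushi, an inhibitor of BMP and Wnt signals, had a log2 change of 0.31 (SE 0.27), Podnl1 one of 0.32 (SE 0.46) and Ecm2 the value above, with edgeR adjusted p between 0.695 and 0.891. None was called by edgeR or DESeq2, and 0 had an unadjusted p under 0.05. The sign of Tsku turned, to -0.015, without RBMS1 knockdown replicate 1. Epyc, Optc, Chadl, Nyx and Kera stayed at or under 21 counts in each group.

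Genes that build, bind or cleave these proteoglycans were taken as 6 further lists. Over all tested genes the log2 fold change had a median of 0.0044, and 12.4% had an unadjusted p under 0.05. Of 18 tested genes that make the linker and the chondroitin or dermatan sulfate chain, 1 was called lower, 0 were called higher, 4 had an unadjusted p under 0.05 and 10 were below 0 (median -0.012). The called gene, Chst15, adds a second sulfate to chondroitin sulfate A units. It had 4.49, 9.43 and 7.23 CPM in the control and 0.863, 2.10 and 1.25 CPM in the knockdown, a log2 change of -2.26 (SE 0.46, edgeR adjusted p = 0.0842, 0.00443 to 0.298 over the alternatives). The call of Chst15 was lost without any 1 of the controls, RBMS1 knockdown replicate 2 or RBMS1 knockdown replicate 3 (edgeR adjusted p 0.132 to 0.298), and also by library size alone (0.108) and with the replicate number as a block (0.122). Keratan sulfate synthesis had 5 tested genes (median -0.35), 0 of them called by edgeR or DESeq2 and 1 at an unadjusted p under 0.05. The lowest unadjusted p in that list belonged to Chst1, the sulfotransferase of keratan sulfate galactose, with a log2 change of -1.22 (SE 0.45, edgeR adjusted p = 0.301), followed by B3gnt2 at -0.55 (edgeR adjusted p = 0.648). With each sample left out, Chst1 ran from -1.59 to -0.78 and B3gnt2 from -0.96 to -0.12. The 12 tested genes of sugar nucleotides, sulfate donors and tyrosine sulfation had a median of 0.095 with 0 called by edgeR or DESeq2 and 0 at an unadjusted p under 0.05. Ugp2 and Uxs1, which feed the UDP-sugar supply, had the smallest p there, with adjusted p of 0.591 and 0.577 by edgeR.

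Collagens were taken as a list too. Of 12 tested genes for fibril-forming, fibril-associated and type VI collagens, 0 were called by edgeR or DESeq2 and 0 had an unadjusted p under 0.05, with a median log2 fold change of -0.010 and 6 below 0. The smallest p belonged to Col5a3 (log2 fold change -0.64, SE 0.29, edgeR adjusted p = 0.409) and Col6a2 (0.29, SE 0.21, edgeR adjusted p = 0.618). Of 15 tested receptors and growth factors, 1 was called lower, 0 were called higher and 4 had an unadjusted p under 0.05 (median 0.044). That gene was Egfr, the receptor bound by decorin, with 71.3, 72.0 and 85.3 CPM in the control and 13.8, 24.3 and 16.1 CPM in the knockdown. Its log2 fold change was -2.08 (SE 0.23, edgeR adjusted p = 0.0125, 8.86e-13 to 0.0663 over the alternatives). DESeq2 also called Tgfb1, the ligand that decorin and asporin bind, which is named here after its values were seen (log2 fold change 0.78, SE 0.17, edgeR adjusted p = 0.105). Without a filter on low counts (1.38% of all tested genes called) and without RBMS1 knockdown replicate 1 (5.94%), edgeR called Tgfb1 too. Of 11 tested proteases, which include Bmp1, the enzyme that trims the propeptides of biglycan and osteoglycin, 0 were called by edgeR, 1 by DESeq2, and 3 had an unadjusted p under 0.05 (median -0.26). Mmp13 and Htra1 had the smallest p of that list, with log2 fold changes of 1.69 (SE 0.41) and 2.10 (SE 0.61) and edgeR adjusted p of 0.129 and 0.176. Both rest on few control reads. Mmp13 had 15, 2 and 10 counts in the control and 43, 64 and 59 in the knockdown. Htra1 had 2, 1 and 4 counts in the control and 13, 20 and 32 in the knockdown. DESeq2 called Mmp13 (DESeq2 adjusted p = 0.0781, within 0.0781 to 0.383 over the alternatives). Mmp13 was also called by edgeR with library sizes alone (1.1% of all tested genes called) and without RBMS1 knockdown replicate 1 (5.94%).

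**Figure D5:**
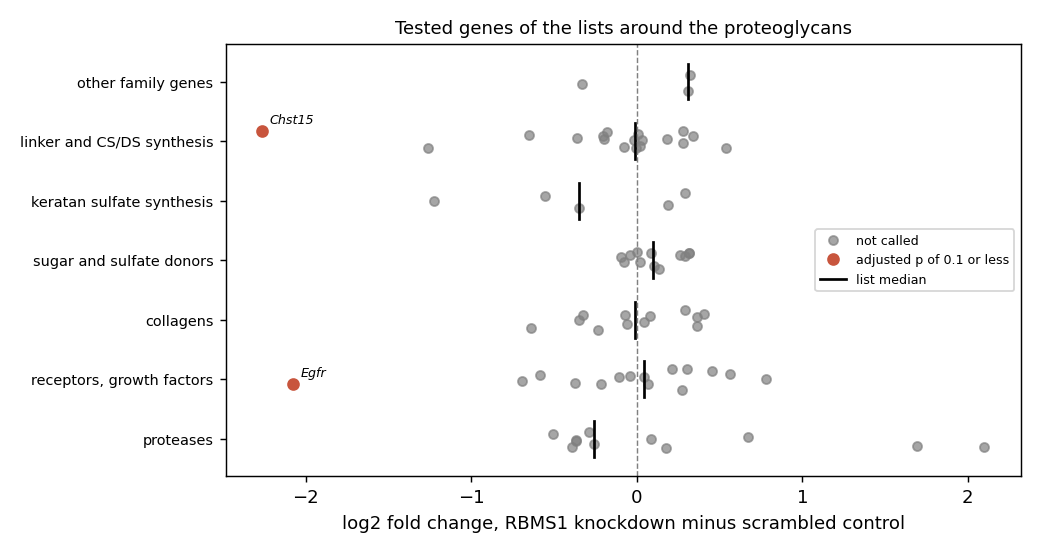
Log2 fold change (horizontal axis, RBMS1 knockdown minus scrambled control) of the tested genes in 7 lists around the proteoglycans, with a black line for the list median and red points for genes called by edgeR at the threshold of 0.1. Chst15 at -2.26 and Egfr at -2.08 are the called genes, and the collagens lie around 0 with a median of -0.010. The vertical scatter within a list has no meaning.

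Among 8159 tested genes of at least 10 CPM on average, the 5 whose profile over the 6 samples was most like that of Lum were 1810011O10Rik, Chrdl1, Ptgfr, Tsnax and Nid2. Likeness was the root mean square difference of log2 CPM after each gene was centred on its control mean, and it ran from 0.31 to 0.36 on the log2 scale. Nid2, a basement membrane nidogen, had 84.9 ± 15.5 CPM (SD, n = 3) in the control and 25.2 ± 4.58 (SD, n = 3) in the knockdown. Chrdl1, a secreted BMP antagonist, had 99.4 ± 9.49 and 22.3 ± 1.04 CPM (SD, n = 3 each). Ogn differed from Lum by 0.55 and came at place 19 by the same measure, Dcn by 0.78 at place 73, Aspn by 0.95 at place 254, and Prelp came at place 8046. These places restate the levels given above and were not tested.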

How the data were processed

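RNA of 3 scrambled control and 3 RBMS1 knockdown 3T3-L1 samples was sequenced from stranded total RNA libraries. The authors used Trim Galore 0.6.7 for trimming and STAR 2.7.10a for alignment (GRCm38), and deposited estimated counts per gene from Salmon 1.9.0, without normalization. The annotation release is not given in the sources used here. After rounding, condition alone was tested by edgeR 4.0.16 under R 4.3.3 (filterByExpr, TMM, estimateDisp, glmQLFit with legacy = FALSE, glmQLFTest), with Benjamini-Hochberg adjustment over 11440 genes. The threshold was an adjusted p of 0.1, as in the study's Results. The study itself tested with DESeq2, which is an alternative here. The depth of 3142695 to 11073098 counts leaves an undetected gene up to 0.220 to 1.49 CPM per sample (3 counts, counting error only). Positions and lengths came from GENCODE M21 (GRCm38).

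Members, gene lists and tests were chosen with earlier results of these data known. Named genes were the members, further family genes, called list genes or, in a list with none, the 2 smallest p, cluster neighbours and the 5 genes most like Lum. Tests were checked on simulated data. Alternatives were DESeq2 1.42.0, RLE factors, library sizes alone, library sizes without ribosomal RNA genes, no filter, at least 1 CPM in 3 samples, a replicate block, leave-one-out and longest transcripts. The earlier edgeR quasi-likelihood estimate and the ratios to marker sums and single markers were chosen after seeing the data.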

Additional observations from a re-analysis of the deposited data

How the results depend on the processing

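The log2 fold changes of Lum, Dcn, Ogn, Prelp, Aspn, Fmod and Podn kept their sign under all 14 alternatives, and that of Bgn ranged from -0.45 to 0.25. Scaling by library size alone raised the median of all tested genes by 0.37 and put Prelp at 1.30, or 0.93 relative to the new median, with Lum at -1.88, Ogn at -1.66 and Bgn at -0.12 on the same relative scale. The called genes, 140 in the edgeR fit reported here, were 430 by DESeq2, 268 with no filter on low counts and 12 to 696 with each sample left out. DESeq2 is the test that the study used, and its Results also gave 430 genes at an adjusted p of 0.1. By library size alone 33.3% of the called genes were lower, against 74.3% in the reported fit. In the reported fit 2 members were called, where 1.22% of all tested genes were. DESeq2 (2.22% called) and the fit with no filter (1.38%) called 4, namely Lum, Dcn, Ogn and Prelp. With each sample left out 0 to 4 members were called, in fits that called 0.101% to 5.94% of tested genes. By library size alone (1.1%) the called members were Lum and Prelp. The called adipocyte markers, 1 in the reported fit, were 7 without RBMS1 knockdown replicate 1 (where 5.94% of all tested genes were called) and 0 when any other sample was left out, by RLE factors, by library size alone, with the replicate block and by the earlier quasi-likelihood estimate. The called genes of the 7 lists around the family, 2 in the reported fit, were 4 by DESeq2 and 1 to 4 with each sample left out. The cause of these shifts was not tested. With the replicate number as a block, 39 genes were called, with Lum and Ogn among them, and 1 list gene. As the contrast chose the family, nothing is read from calls of members under any setting. The deviations of same-numbered samples correlated at -0.15, 0.091 and -0.035, and those of differently numbered samples at -0.18 to 0.22. With 3 samples per group, these values cannot decide whether the numbers pair the samples. Per kilobase of the longest transcript, Bgn was at 749.9 and Dcn at 55.3 CPM in the control.

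Over the 30 named genes other than members and their alternatives, 374 results kept sign and call, 22 lost the call, 9 gained it and 15 changed sign, all of the last for genes not called. By library size alone Sox9, Des, Btg1, Scp2 and Haus7 turned to 0.21, 0.30, 0.32, 0.11 and 0.23. With each sample left out, Des ranged from -0.29 to 0.11, Nol8 from -0.15 to 0.25, Tsku from -0.015 to 0.56, Sox9 from -0.33 to 0.11, Ecm2 from -1.20 to 0.11, Haus7 from -0.19 to 0.0011 and Btg1 from -0.18 to 0.045. Among members, depth limits Omd and Fmod, which had under 3 counts in some samples, and Podn, with 4 to 58 counts per sample. It also limits Mmp13, Htra1 and the further family genes Kera, Epyc, Optc, Chad, Chadl, Nyx and Ecm2, which had under 3 counts in some samples.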
